A study of Homo sapiens with 39 samples.

Results

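WM115 R1 clone 1.1 is a clone of the human melanoma line WM115 whose genotype label gives a deletion of a regulatory region near SOX10, named R1. Its 5 libraries were compared here with the 4 libraries of wild-type (WT) WM115 cells, which makes 9 of the 39 libraries of the series. The members were taken by title and column name: the libraries titled for clone 1.1 and those titled WT, both in WM115. The study measured RNA from WM115 and from A375, another melanoma line, with R1 or a second region, R4, deleted, to examine regions that may regulate SOX10. Further WM115 clones serve below as points of reference: R1 clone 1.2 (3 libraries), R4 clone 4.1 (3 libraries) and R4 clone 4.2 (3 libraries). Both groups compared here share the line, the tissue label (skin) and the RNA and library protocol, and no drug, time point or other treatment is labelled. The 5 libraries repeat 1 clone, and the labels do not say whether they came from separate cultures, so p-values below measure the spread between libraries, which may be technical. The comparison therefore shows how this clone differs from WT, and the effect of the deletion and any other feature of the clone cannot be told apart.

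SOX10 is a transcription factor that keeps neural crest derivatives, among them melanocytes and Schwann cells, in their lineage, and in melanoma cells it maintains MITF and with it the pigment program. Melanoma cells also produce inflammatory proteins: NF-kB and STAT3 drive genes of the acute-phase response, complement and chemokines, and interferons drive antiviral genes. Which of these programs a melanoma cell uses varies between cells of 1 line, together with the matrix it secretes and the growth factor receptors it carries.

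Levels are in TPM, a scale corrected for gene length and library total, and the read depth is unknown because no counts are given. RNA from the mitochondrial genome made up 4.86% to 14.4% of a clone 1.1 library and 13.7% to 15.6% of a WT library. Only clone libraries 4 and 5 lay above the 7.5% that separates the high from the low libraries, while all 4 WT libraries did. Cytosolic ribosomal protein genes took 16.9% to 18.6% in the clone and 12.3% to 13.8% in WT, without overlap. Between 14084 and 14616 genes reached 1 TPM in a clone library, and between 14878 and 15382 in a WT library. Of the melanocytic markers 7 of 9 exceeded 1 TPM in each clone library, with TYR among the others, and the 9 summed to 1614 to 2330 TPM in the clone and 1463 to 3391 TPM in WT. Of 8 keratinocyte markers 7 stayed under 1 TPM in all 9 libraries, as did 5 of 8 endothelial and 7 of 8 leukocyte and erythroid markers. The keratinocyte exception was KRT10, at 42.04 to 67.9 TPM in the clone, and the leukocyte exception CD68, at 232 to 348 TPM. COL1A2 made up most of the fibroblast list, whose 8 members summed to 587 to 900.1 TPM in the clone and 490 to 722 TPM in WT. Of the 8, 3 exceeded 1 TPM in each clone library. COL1A1 lay between 0.087 and 0.519 TPM in the clone, and FAP between 21.3 and 50.3 TPM (29.9 to 69.2 TPM in WT). Among WT libraries, library 3 was lowest in MITF and in several NF-kB genes, and library 4 was lowest in SAA1 and highest in TYR and DCT, so calls that rest on 1 WT library are named beside each result.

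SOX10 (ENSG00000100146, chromosome 22, 37970686 to 37987422, minus strand, GRCh38) stood at 482, 405, 420, 342 and 391 TPM in clone libraries 1 to 5 and at 553, 539.9, 485 and 449 TPM in WT libraries 1 to 4. The clone values lay mostly below WT, and only library 1 of the clone overlapped the WT range. Means were 408 ± 50.6 TPM (SD, n = 5) and 507 ± 48.3 TPM (SD, n = 4). An exact two-sided permutation test of the 9 log2(TPM + 1) values gave p = 0.0317 for a difference of -0.32, where the smallest p that 5 against 4 libraries allow is 0.0159. In the limma fit of all 21 WM115 libraries the SE was 0.61 and the adjusted p over all genes 0.753. That fit includes library 3 of R1 clone 1.2, whose SOX10 level stands far below the other 2 of its group, and without it the limma adjusted p was 0.127. With only the 2 groups fitted the SE was 0.11 and the limma adjusted p 0.0552. R1 clone 1.2, labelled with the same deletion, averaged 187 TPM. Clone 1.1 stood above it by a log2 difference of 2.13 (SE 0.67, limma adjusted p 0.0189), a contrast that includes that low library 3. Against the mean of the R4 clones no difference was detected (log2 difference -0.01, SE 0.55, limma adjusted p 0.994).

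Around SOX10, 51 genes within 1 Mb were tested and 5 were called, with a median log2 difference of -0.14. PLA2G6 (38111495 to 38205690 on chromosome 22), a phospholipase that cleaves fatty acids from membrane lipids, had 30.04, 25.8, 15.8, 68.7 and 85.2 TPM in the clone and 324, 377, 257 and 354 TPM in WT. The groups were far apart, and clone libraries 4 and 5 were the highest of the clone. PLA2G6 fell by 3.08 on the log2 scale (SE 0.65, limma adjusted p 0.00286), and levels in clones 1.2, 4.1 and 4.2 averaged 63.7, 50.9 and 53.5 TPM. The bZIP factor MAFF (log2 difference -1.58) and the noncoding gene AL022322.1 (-1.26) were also lower. LGALS1, the galectin-1 gene (1.15), and CDC42EP1, an effector of the GTPase CDC42 (1.26), were higher. PLA2G6, MAFF and AL022322.1 lie on the far side of SOX10 from LGALS1 and CDC42EP1. MAFF was no longer called without any 1 of WT libraries 1, 2 and 4 or clone libraries 2, 3 and 4, and LGALS1 without WT library 4 or with quantile normalization.

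Over all genes, 829 of 16997 tested genes were called in clone 1.1 (4.88%), 207 higher (1.22%) and 622 lower (3.66%). A call needed a limma adjusted p under 0.05 and a log2(TPM + 1) difference of at least 1, and fold changes on this scale understate those of low genes. Signed numbers beside a gene below are differences on this scale, clone minus WT unless another contrast is named, and each rise or fall is given on it. With no minimum difference, 6.3% of all tested genes were higher and 15.7% lower at a limma adjusted p under 0.05. The median of all tested genes was -0.12, and it moved to -0.002 with median-of-ratios scaling and to 0.016 with quantile normalization. Under these scalings 746 and 687 genes were called, and the share higher rose from 25.0% to 39.3% and 43.4%. Among protein-coding genes with a mean of at least 5 TPM in the higher group and no overlap between groups, the largest falls were in SAA1, MAGEC2, LCN2, SAA2, MAGEC1, SERPINA3, SERPINA5, CPVL, BMP7 and CCL2. The largest rises were in FGL2, GRM8, SYTL5, SCUBE3, COL5A3, ACAN, SORCS2, INA, SOX8 and DAB1. A fit of only the WM115 libraries of high mitochondrial share, in which the clone keeps 2 libraries and WT all of its own, gave fewer calls (371 genes). High-share libraries of the other WM115 groups enter the spread of that fit. Of 144 called genes examined by name 143 were tested there. Of these, 125 kept their direction with a log2 difference of at least 1 in that fit, and 57 were still called. The clone and WT libraries of that fit also made the calls, so keeping direction and size was largely set in advance and is no separate test.

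**Figure D1:**
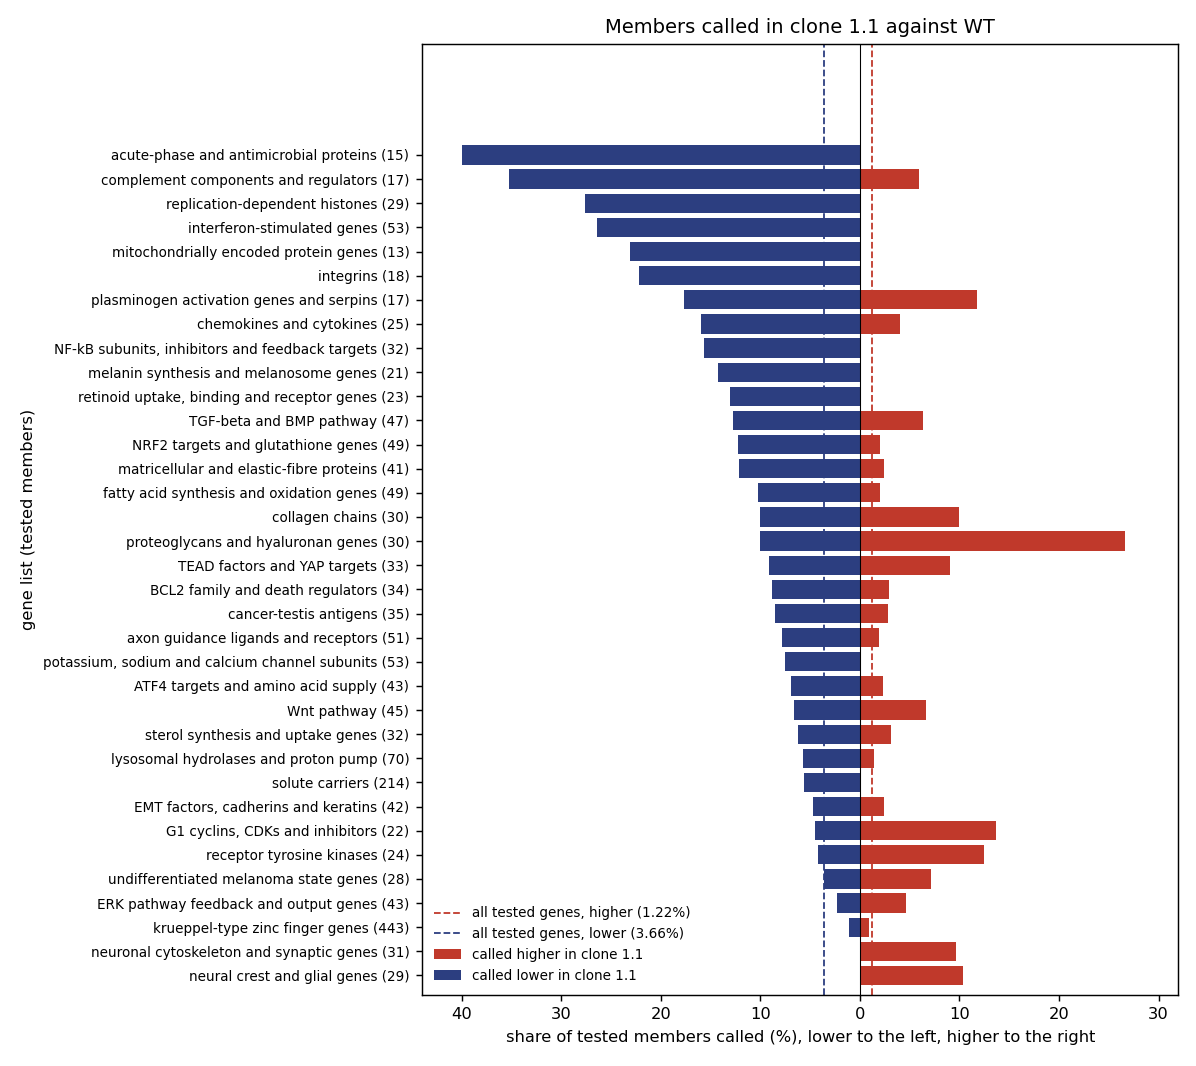
Share of tested members called in clone 1.1 against WT for each of the 35 gene lists with at least 3 calls, with lower calls drawn to the left and higher calls to the right and the number of tested members in brackets. Dashed lines give the shares over all tested genes, 3.66% lower and 1.22% higher. Acute-phase and complement genes reach furthest to the left, and proteoglycans furthest to the right.

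Acute-phase and complement genes had the highest shares of lower calls of the lists with at least 3 calls. Of 15 tested acute-phase and antimicrobial proteins 6 fell and 0 rose, with a median log2 difference of -0.94 beside -0.12 over all genes. Of 17 complement genes 6 fell and 1 rose. The 2 lists share C3. Bulk RNA does not tell fewer cells that make these RNAs from less RNA in each cell.

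SAA1 (ENSG00000173432, chromosome 11, 18266174 to 18269977), an apolipoprotein of the acute-phase response, was at 2.4, 1.07, 0.554, 0.241 and 3.17 TPM in clone libraries 1 to 5 and at 737, 539, 246 and 53.6 TPM in WT libraries 1 to 4. All clone libraries were below all WT libraries, although WT varied widely, with library 4 lowest. The SAA1 log2 difference was -6.92 (SE 0.75, limma adjusted p 5.86e-06). SAA2, whose sequence is close to that of SAA1 so that reads may be split between them, fell by 5.59. LCN2 (ENSG00000148346, chromosome 9, 128149071 to 128153455), which binds bacterial siderophores, had 4.12, 2.77, 1.99, 0.748 and 1.65 TPM in the clone and 404, 361, 237 and 39.1 TPM in WT. Again the groups did not overlap and WT library 4 was lowest. LCN2 fell by 5.98 (SE 0.92, limma adjusted p 0.000208). SERPINA3, the inhibitor alpha-1-antichymotrypsin, had 1.59, 1.46, 0.621, 1.04 and 2.06 TPM in the clone and 222, 77.2, 32.5 and 35.6 TPM in WT, a fall of 4.89 (SE 0.98, limma adjusted p 0.00188). SOD2, the mitochondrial superoxide dismutase, was lower as well (-1.53), but its clone libraries reached 127 TPM against 119.96 TPM in WT library 3, and the call was lost without WT library 1, WT library 2 or clone library 3.

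These genes were not low in each deletion clone. SAA1 averaged 8.7 TPM in R1 clone 1.2, 3552 TPM in R4 clone 4.1 and 84.2 TPM in R4 clone 4.2. The direct contrast of clone 1.1 with clone 1.2 gave -1.25 (SE 0.82, limma adjusted p 0.248), and that with the mean of the R4 clones gave -7.703 (SE 0.68, limma adjusted p 2.04e-07). In these contrasts 11.8% and 6.04% of all tested genes were called. LCN2 followed the same order, with 23.9, 1496 and 69.8 TPM, and differed from the R4 clones (-6.47, limma adjusted p 1.58e-05) while its contrast with clone 1.2 missed the threshold (-0.92, limma adjusted p 0.501).

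C3, the central complement protein, was at 0.727, 0.805, 0.555, 1.12 and 0.237 TPM in the clone and 57.4, 35.7, 17.5 and 4.99 TPM in WT. Each clone library was under the lowest WT library, which was library 4. C3 fell by 3.73 (SE 0.59, limma adjusted p 0.000265), and it was lower than in clone 1.2 (-5.02, limma adjusted p 1.91e-05) and the R4 clones (-5.75, limma adjusted p 3.73e-07). C1S, a protease of the first complement complex, fell by 3.18 from 38.8, 13.7, 6.39 and 21.6 TPM in WT to 0.332, 0.975, 0.23, 2.26 and 1.66 TPM. Its partner C1R fell by 1.54, the protease C2 by 1.59 and factor I, encoded by CFI, by 2.05. CLU, whose product clusterin blocks the terminal complex, was the member that rose: it had 28.2, 30.3, 18.2, 9.07 and 15 TPM in the clone and 3.09, 4.91, 5.81 and 3.52 TPM in WT, without overlap (1.902, SE 0.51, limma adjusted p 0.013). CLU lies on chromosome 8, and its call was lost when the median of that chromosome was subtracted. In the fit of only the libraries of high mitochondrial share the list held 1 complement call.

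NF-kB feedback genes and secreted signals were lower too. Of 32 NF-kB subunits, inhibitors and feedback targets 5 fell and 0 rose, and 16 were lower at a limma adjusted p under 0.05 with no minimum difference (15.7% of all tested genes were). Of 25 chemokines and cytokines 4 fell and 1 rose. CCL2, a chemokine that attracts monocytes, had 0.109, 0.059, 0, 0 and 0.584 TPM in the clone and 46, 15.7, 7.66 and 10.5 TPM in WT. It was listed at 0 in clone libraries 3 and 4 and fell by 3.88 (SE 0.57, limma adjusted p 0.000126). IL1B, the cytokine interleukin-1 beta, had 6.62, 4.95, 6.56, 6.43 and 2.3 TPM in the clone and 73.3, 73.6, 79.6 and 14.7 TPM in WT, where library 4 stood far below the other 3. IL1B fell by 3.08 (SE 0.74, limma adjusted p 0.00656) and averaged 98.4, 1084 and 219 TPM in clones 1.2, 4.1 and 4.2. TNFSF13B, the B-cell factor BAFF, fell by 1.95. Without clone library 3 or WT library 1 the cytokine list held 3 lower calls and 0 higher.

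Among feedback genes of NF-kB, NFKBIZ, a nuclear IkB protein, had 4.91, 2.76, 1.74, 4.96 and 7.14 TPM in the clone and 20.8, 15, 8.54 and 12.6 TPM in WT (-1.56, SE 0.33, limma adjusted p 0.00284). The groups were separate, with clone library 5 nearest to WT library 3. BIRC3, a ubiquitin ligase that limits cell death, fell by 1.37 and the deubiquitinase TNFAIP3 by 1.35, the latter with clone libraries 1 and 2 above WT library 3. ZC3H12A, an RNase that degrades cytokine mRNA, fell by 1.08, a call that median-of-ratios scaling, quantile normalization or leaving out WT library 2 ended. NFKBIA, the inhibitor IkB-alpha, was called at -1.04 with a limma adjusted p of 0.0458. Its call ended without any 1 library other than WT library 3. The subunit genes were not called: RELA had a log2 difference of -0.33 (limma adjusted p 0.0354) and NFKB1 one of -0.33 (0.177). CXCL8 (-0.54, limma adjusted p 0.678) and CXCL1 (-1.06, 0.147), chemokines for neutrophils, were not called either. The NF-kB count was 3 without WT library 2, 10 with a pseudocount of 0.1 and 0 in the fit of only the libraries of high mitochondrial share.

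The promoters of LCN2, TNFAIP3 and BIRC3 are shown because these genes fell together and their 250 bases before the RefSeq start hold letters of the NF-kB consensus (GRCh38.p14, both strands searched, matches in capitals). That consensus is found in 9.96% of all 35116 such windows. It was in windows of 4 of the 5 NF-kB genes that fell, against 11 of 20 matched NF-kB genes that were not called, and in 1 of 3 matched acute-phase genes that fell. A match describes letters only.
LCN2, chr9:128149203-128149452, plus strand: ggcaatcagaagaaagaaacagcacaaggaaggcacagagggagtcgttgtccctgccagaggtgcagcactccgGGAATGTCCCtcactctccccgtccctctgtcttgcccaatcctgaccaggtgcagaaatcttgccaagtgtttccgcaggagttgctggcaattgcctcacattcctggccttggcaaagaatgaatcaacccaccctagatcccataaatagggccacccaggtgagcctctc
TNFAIP3, chr6:137867009-137867258, plus strand: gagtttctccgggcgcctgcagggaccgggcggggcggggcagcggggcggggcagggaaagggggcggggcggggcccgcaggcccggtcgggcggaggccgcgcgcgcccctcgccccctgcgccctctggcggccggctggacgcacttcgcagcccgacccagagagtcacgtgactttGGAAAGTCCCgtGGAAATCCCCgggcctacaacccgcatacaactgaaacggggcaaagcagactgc
BIRC3, chr11:102317234-102317483, plus strand: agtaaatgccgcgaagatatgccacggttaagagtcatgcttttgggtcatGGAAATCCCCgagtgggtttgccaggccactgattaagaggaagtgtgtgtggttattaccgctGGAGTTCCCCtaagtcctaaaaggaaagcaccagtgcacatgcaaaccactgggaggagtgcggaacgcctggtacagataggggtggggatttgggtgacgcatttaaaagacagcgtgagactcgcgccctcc

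Of the lists examined, antiviral genes held the highest number of lower calls. Of 53 tested interferon-stimulated genes 14 fell and 0 rose, 29 were lower at a limma adjusted p under 0.05 with no minimum difference, and the median was -0.57. TRIM22 (ENSG00000132274, chromosome 11, 5689689 to 5737089), an antiviral ubiquitin ligase, had 1.26, 1.34, 1.6, 1.51 and 2.17 TPM in the clone and 15.2, 11.4, 8.52 and 12.2 TPM in WT. Its groups did not overlap, and it fell by 2.30 (SE 0.23, limma adjusted p 2.47e-06). APOL1, an apolipoprotein that lyses trypanosomes, had 10.02, 9.5, 7.31, 6.04 and 7.49 TPM in the clone and 44.5, 37.6, 18.8 and 38.1 TPM in WT and fell by 1.93. BST2, which tethers budding virions, fell by 1.69, with 2.6, 2.82, 0.926, 1.22 and 1.21 TPM in the clone and 12, 6.71, 2.97 and 12.1 TPM in WT. MX1, a GTPase that traps viral capsids, fell by 1.59, from 11, 7.4, 4.87 and 11.6 TPM to 3.02, 2.03, 1.84, 1.8 and 1.91 TPM. In all 3 of APOL1, BST2 and MX1 the highest clone library was under the lowest WT library, WT library 3. ISG15, a ubiquitin-like modifier, was just under the size of a call (-0.96, limma adjusted p 0.000786). IRF1, a transcription factor of the response, was not called (-0.38, limma adjusted p 0.311).

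The number of interferon-stimulated genes called was 9 with median-of-ratios scaling, 6 with quantile normalization, 8 without WT library 1 and 9 without WT library 4. It was 7 with the median of each chromosome subtracted and 8 in the fit of only the libraries of high mitochondrial share. BST2 was no longer called without WT library 1 or WT library 4. TRIM22 was lower than in clone 1.2 (-1.92, limma adjusted p 2.37e-05) and than in the R4 clones (-2.55, limma adjusted p 7.21e-08). For MX1 the contrast with the R4 clones missed the threshold (-0.48, limma adjusted p 0.151). MHC class I genes were mostly lower without reaching the size of a call: 1 of 24 tested members was called, and 12 were lower at a limma adjusted p under 0.05. B2M, the invariant light chain of class I, had 1072, 1097, 1022, 1176 and 1135 TPM in the clone and 2716, 1697, 1600.1 and 3225 TPM in WT (-1.01, limma adjusted p 0.00535), without overlap. Its call, at the edge of the threshold, ended without any 1 of clone libraries 1 and 3 and WT libraries 1 and 4. The heavy chain gene HLA-B was not called (-0.28, limma adjusted p 0.344).

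IFI6 and BST2 are shown as interferon-stimulated genes that fell and whose promoters hold the repeat read by interferon-activated factors (TTTC, 2 bases of any kind and TTTC again, on either strand, here in capitals). That repeat is in 3.02% of all windows, and it was in windows of 8 of the 11 matched interferon-stimulated genes that fell and of 13 of the 29 that were not called. In BST2 both matches overlap. IFI6, a membrane protein that limits viral replication, had 85.2, 82, 69.5, 71.5 and 70.6 TPM in the clone and 197, 152, 119 and 211 TPM in WT (-1.12, limma adjusted p 0.000437), without overlap, and its call ended with median-of-ratios scaling.
IFI6, chr1:27672193-27672442, minus strand: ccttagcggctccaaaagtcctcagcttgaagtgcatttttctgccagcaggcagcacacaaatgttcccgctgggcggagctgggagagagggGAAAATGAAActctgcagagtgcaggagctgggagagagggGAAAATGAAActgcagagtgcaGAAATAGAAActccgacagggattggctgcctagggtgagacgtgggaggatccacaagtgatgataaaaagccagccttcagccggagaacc
BST2, chr19:17405631-17405880, minus strand: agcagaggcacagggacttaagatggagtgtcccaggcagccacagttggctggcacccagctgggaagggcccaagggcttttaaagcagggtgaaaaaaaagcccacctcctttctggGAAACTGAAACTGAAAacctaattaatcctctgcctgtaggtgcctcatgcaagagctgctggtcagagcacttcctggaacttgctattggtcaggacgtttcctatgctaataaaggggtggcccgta

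**Figure D2:**
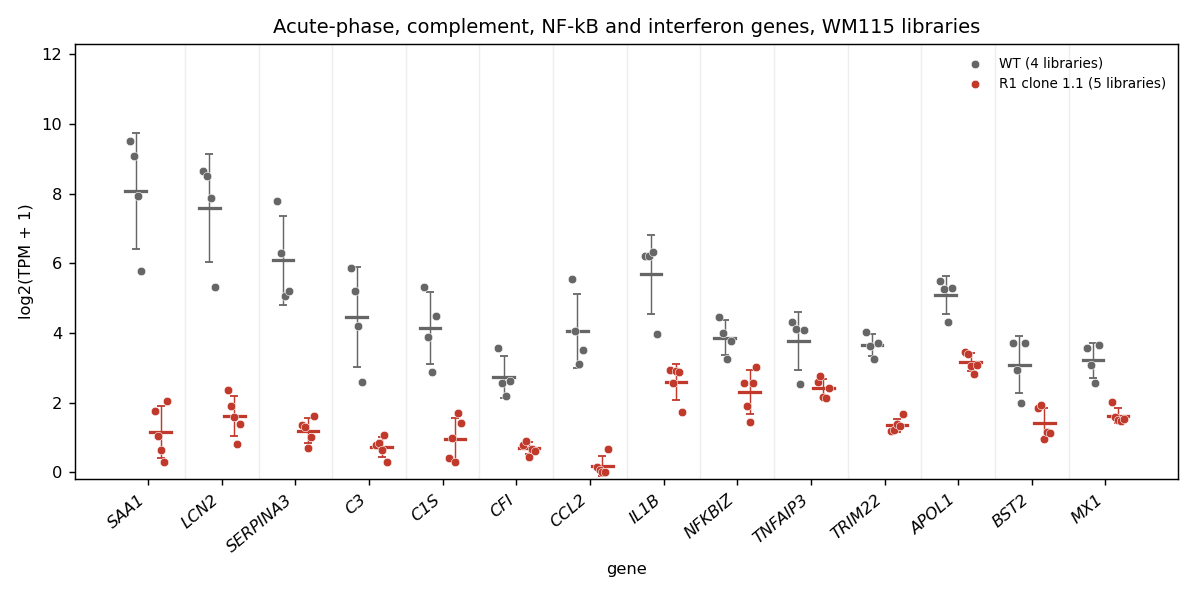
Level in log2(TPM + 1) of 14 acute-phase, complement, NF-kB and interferon genes in each WT library (grey, n = 4) and each clone 1.1 library (red, n = 5), with bars at the mean and error bars of 1 SD. Red points lie below all grey points for each gene except TNFAIP3, where clone libraries 1 and 2 reach above WT library 3.

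Some pigment genes fell and a few genes of the crest and glial state rose. Of 21 tested melanin and melanosome genes 3 fell and 0 rose. TYR, the enzyme that starts melanin synthesis, had 0.521, 0.713, 0.094, 0.211 and 0.655 TPM in the clone and 6.48, 4.11, 1.17 and 23.5 TPM in WT. All clone libraries were below WT, which ranged widely between library 3 and library 4. TYR fell by 2.24 (SE 0.66, limma adjusted p 0.021), a call that ended without WT library 1 or WT library 4. RAB27A, the GTPase that anchors melanosomes to actin, had 5.28, 7.1, 7.04, 8.01 and 7.25 TPM in the clone and 34.6, 29.8, 17.7 and 38 TPM in WT. It was well separated and fell by 1.92 (SE 0.29, limma adjusted p 0.000183). TRPM1, a channel gene under MITF, was listed at 0 in all 5 clone libraries and at 2.71, 0.674, 0 and 3.72 TPM in WT.

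Other pigment genes did not pass the test. MITF, the master regulator of the pigment program, had 96.2, 51, 54.4, 55.6 and 98.1 TPM in the clone and 149, 139, 60.5 and 164 TPM in WT. The ranges overlapped through WT library 3, and an exact two-sided permutation test gave p = 0.0794 for a difference of -0.81 (limma adjusted p 0.297). DCT, a tautomerase of the melanin pathway, had 376, 249, 66.2, 119 and 309 TPM in the clone and 785, 681, 215 and 1685 TPM in WT, with a log2 difference of -1.82 (SE 1.06, limma adjusted p 0.231). MLANA, a melanosome protein, had -1.86 (limma adjusted p 0.0646), TYRP1, which stabilizes TYR, 1.01 (0.404), and PMEL, the fibril protein of the melanosome, 0.23 (0.847). So TYR and TYRP1 had differences of opposite sign, of which that of TYR was called. The count of called melanin genes was 5 without WT library 3 and 1 without WT library 1 or WT library 4. It was also 1 with the median of each chromosome subtracted, which ended the calls of TYR and TRPM1. The fit of only the libraries of high mitochondrial share and that with the mitochondrial set as a term each gave 1 as well. Library weights gave 8, and fitting only the 2 groups gave 5. Against the R4 clones the pigment genes went in both directions: MITF was 2.29 above their mean (limma adjusted p 0.00163), DCT 4.87 (0.000892) and TYRP1 5.596 (2.20e-05), while RAB27A was lower (-1.33, limma adjusted p 0.00094) and for TYR the contrast missed the threshold (0.496, 0.593).

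The upstream 250 bases of TYR are shown as the promoter of the pigment enzyme that fell. The hexamer CATGTG, an E-box that MITF can bind, occurs in 9.42% of all windows, in windows of 2 of the 3 melanin genes that fell and of 8 of the 14 matched ones that were not called. In TYR it starts at positions -104 and -12 relative to the annotated start.
TYR, chr11:89177625-89177874, plus strand: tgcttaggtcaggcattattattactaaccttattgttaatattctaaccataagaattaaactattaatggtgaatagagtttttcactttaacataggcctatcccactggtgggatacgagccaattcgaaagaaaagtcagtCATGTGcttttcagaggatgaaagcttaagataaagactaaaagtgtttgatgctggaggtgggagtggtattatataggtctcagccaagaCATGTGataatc

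Of 29 tested neural crest and glial genes 3 rose and 0 fell. SOX8, a factor of the same SOX subgroup as SOX10, had 6.33, 4.52, 5.12, 5.62 and 4.98 TPM in the clone and 0.142, 0.049, 0.15 and 0.041 TPM in WT. It was near 0 in WT and rose by 2.52 (SE 0.41, limma adjusted p 0.000358), while its contrasts with clone 1.2 (0.74, limma adjusted p 0.211) and the R4 clones (-0.61, 0.244) missed the threshold. AQP1, a water channel of crest cells, had 7.52, 12.8, 10.3, 11.2 and 5.67 TPM in the clone and 0.805, 0.4, 1.64 and 0.669 TPM in WT (2.47, SE 0.304, limma adjusted p 2.00e-05). PMP22, a myelin protein, rose by 1.04, from 146, 116, 151 and 133 TPM to 308, 283, 294, 275 and 246 TPM, and its call ended without WT library 2. S100B (0.900), ERBB3 (0.65) and NGFR (1.597), a calcium-binding protein and 2 receptors of Schwann cells, were not called in the fit of 21 libraries (limma adjusted p 0.429, 0.215 and 0.168). With only the 2 groups fitted their limma adjusted p-values were 0.00624, 0.0129 and 0.0424, and 5 members of the list were called. Median-of-ratios scaling and quantile normalization each gave 6 higher calls in this list.

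Genes of the undifferentiated melanoma state went in both directions, with 2 of 28 higher and 1 lower. AXL, a receptor kinase linked to drug tolerance, had 122, 179, 223, 164 and 87.9 TPM in the clone and 44.6, 58.5, 144 and 33.8 TPM in WT, where library 3 reached into the clone range (1.29, limma adjusted p 0.0269). Without WT library 3 the list held 4 higher and 1 lower calls. The AXL call ended without any 1 of clone libraries 2, 3 and 4 or WT libraries 1, 2 and 4. CAV1, the coat protein of caveolae, rose by 1.26 without overlap (limma adjusted p 0.0076). EGFR went the other way: it had 3.08, 2.77, 2.59 and 2.24 TPM in WT and between 0.034 and 0.048 TPM in the clone (-1.81, limma adjusted p 0.000114), and averaged 11.6, 7.09 and 4.99 TPM in clones 1.2, 4.1 and 4.2. EGFR was lower than in clone 1.2 by a log2 difference of -3.55 (limma adjusted p 1.44e-07) and than in the R4 clones by -2.72 (1.72e-07).

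**Figure D3:**
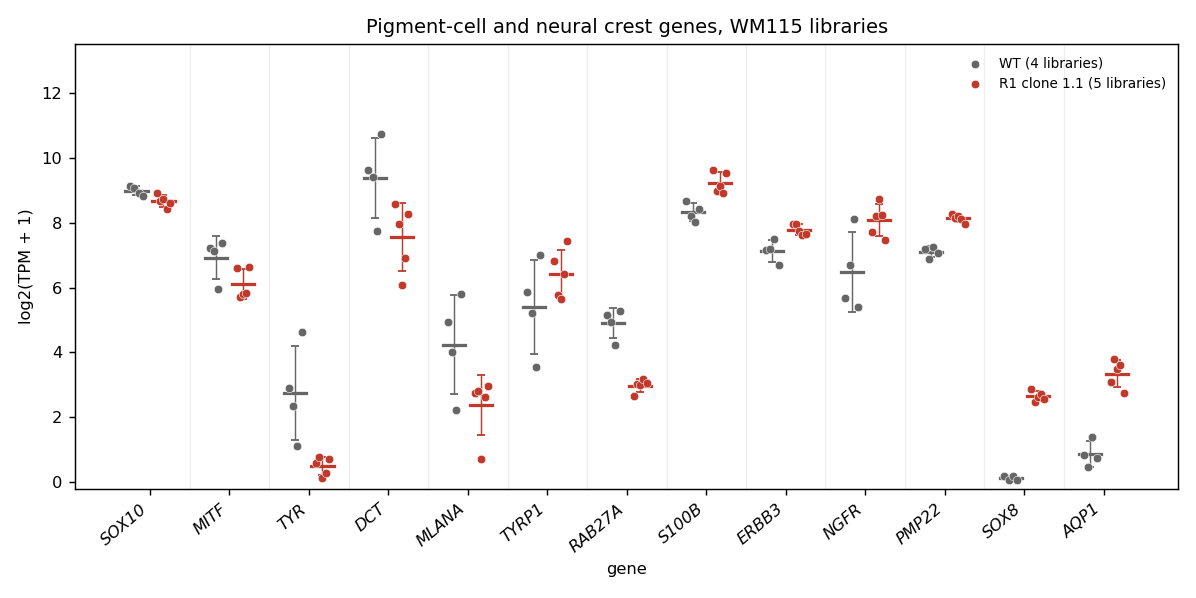
Level in log2(TPM + 1) of 13 pigment-cell and neural crest genes in each WT library (grey, n = 4) and each clone 1.1 library (red, n = 5), with bars at the mean and error bars of 1 SD. TYR, RAB27A, SOX8, AQP1 and PMP22 separate the groups, and so do S100B and ERBB3, while SOX10, MITF, DCT, MLANA, TYRP1 and NGFR overlap.

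Several proteoglycans rose. Of 30 tested proteoglycan and hyaluronan genes 8 rose and 3 fell. The list as a whole did not lean higher: 14 members lay above 0 and 16 below, with a median of -0.11 beside -0.12 over all genes. With no minimum difference, 10 were higher and 6 lower at a limma adjusted p under 0.05. ACAN (ENSG00000157766, chromosome 15, 88803442 to 88875354), the aggrecan core protein of cartilage, had 24.3, 7.48, 15, 3.62 and 4.45 TPM in the clone and 0.749, 0.679, 0.458 and 0.195 TPM in WT. The clone libraries spread widely but all exceeded WT, and ACAN rose by 2.69 (SE 0.45, limma adjusted p 0.000402). PTPRZ1, a phosphatase receptor that carries chondroitin sulfate, had 147, 69, 78.6, 72 and 133 TPM in the clone and 20.8, 21.9, 11 and 16.2 TPM in WT (2.42, limma adjusted p 0.0232). Its call ended without WT library 3 or WT library 4, and with only the 2 groups fitted its limma adjusted p was 0.000453. VCAN, the versican core protein, rose by 2.04 (SE 0.35, limma adjusted p 0.0005), the testican gene SPOCK1 by 1.89 and the syndecan gene SDC2, on chromosome 8, by 1.804. SPOCK1 was not called without clone library 3, WT library 2 or WT library 4. Among the members that fell, SRGN, the serglycin of secretory granules, had 20.8, 20.7, 18.7, 19.9 and 16.9 TPM in the clone and 175, 123, 116 and 169 TPM in WT (-2.83, SE 0.38, limma adjusted p 5.47e-05). LUM, the keratan sulfate proteoglycan lumican, fell by 2.34.

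ACAN was high in other clones too. It averaged 6.7, 22.4 and 2.3 TPM in clones 1.2, 4.1 and 4.2, and its contrasts with clone 1.2 (0.601, SE 0.48, limma adjusted p 0.354) and with the R4 clones (0.17, SE 0.402, 0.797) missed the threshold. PTPRZ1 was above clone 1.2 by 3.33 (limma adjusted p 0.00343) and above the R4 clones by 1.901 (0.0375), and SDC2 by 2.84 (2.61e-05) and 1.53 (0.00117). SRGN was lower than in either (-4.69, limma adjusted p 4.00e-07, and -3.19, 2.24e-06). In the fit of only the libraries of high mitochondrial share the list held 2 higher and 2 lower proteoglycan calls.

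Of 30 collagen chains 3 rose and 3 fell. COL5A3, a minor fibrillar chain, had 16.3, 17.5, 24.1, 10.4 and 12.8 TPM in the clone and 1.03, 1.42, 3.41 and 0.825 TPM in WT (2.73, SE 0.28, limma adjusted p 3.24e-06). COL15A1, a chain of the basement membrane zone, had 92.8, 73, 69.2, 54.9 and 64.6 TPM in the clone and 25.9, 19, 11.8 and 15.1 TPM in WT (1.96, limma adjusted p 0.00568). Both were without overlap, and WT library 3 was the highest of its group for COL5A3 and the lowest for COL15A1. COL4A3, a chain of specialized basement membranes, fell by 2.01, from 5.69, 4.77, 3.87 and 5.13 TPM to 0.465, 0.492, 0.38, 0.511 and 0.385 TPM, and the cartilage collagen COL9A1 fell by 1.76. Integrins gave 4 lower and 0 higher of 18 tested, namely ITGAM (-1.82), ITGA11 (-1.75), ITGA7 (-1.18) and ITGB3 (-1.09). ITGA7 was lost when any 1 library of either group was left out, ITGAM without WT library 1 or 4 and ITGB3 without WT library 2, and 2 integrins were called without any 1 of these WT libraries. With only the 2 groups fitted the limma adjusted p of ITGA7 was 0.000439. ITGA11, a collagen receptor, had 11.4, 2.25, 3.77, 2.49 and 3.51 TPM in the clone and 20.7, 19.8, 11.2 and 13.2 TPM in WT, so that clone library 1 overlapped WT, and it averaged 45.9, 63.9 and 55.1 TPM in clones 1.2, 4.1 and 4.2. Matricellular and elastic-fibre proteins gave 5 lower and 1 higher of 41, with EFEMP1, a fibulin, at -1.45, ECM1, a secreted matrix protein, at -1.34 and TNXB, tenascin-X, at 1.29. The crosslinker TGM2 (-1.15) lost its call without most single libraries of either group: any 1 of clone libraries 1, 3, 4 and 5 or WT libraries 1, 2 and 3.

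Plasminogen activation genes and serpins gave 3 lower and 2 higher of 17. Beside SERPINA3, the protein C inhibitor SERPINA5 had 0.093, 0.169, 0.04, 0.111 and 0.151 TPM in the clone and 50.5, 29, 14 and 21.3 TPM in WT (-4.59, SE 0.599, limma adjusted p 4.03e-05). SERPINF1, which encodes the antiangiogenic factor PEDF, had 2.47, 3.45, 0.933, 1.5 and 3.48 TPM in the clone and 47.9, 31.6, 20.7 and 90.5 TPM in WT (-3.72, limma adjusted p 0.000235). Neither overlapped. PLAT, the tissue plasminogen activator, rose by 1.22, but library 5 of the clone (102 TPM) was under library 3 of WT (106 TPM), and without WT library 4, or with the chromosome 8 median subtracted, it was not called. Without WT library 4 the list held 3 lower and 0 higher calls.

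Genes of the TGF-beta and BMP pathway changed in both directions, with 3 called higher and 6 lower of 47. The list as a whole leaned the other way: 30 members lay above 0, with a median of 0.13. At a limma adjusted p under 0.05 with no minimum difference, 11 were higher and 8 lower (6.3% and 15.7% of all tested genes were). BMP7 (ENSG00000101144, chromosome 20, 57168748 to 57266629), a ligand of the BMP branch, had 0.348, 0.684, 0.535, 0.101 and 0.616 TPM in the clone and 29.2, 29.2, 25.8 and 13.8 TPM in WT. The groups lay far apart, with WT library 4 the lowest of WT, and BMP7 fell by 4.09 (SE 0.29, limma adjusted p 2.40e-08). In clones 1.2, 4.1 and 4.2 BMP7 averaged 28.9, 18.4 and 16.7 TPM, and both direct contrasts were called (-4.22, limma adjusted p 6.36e-08, and -3.68, 1.08e-08). FSTL1, a secreted follistatin-like antagonist, fell by 2.09, from 45.9, 36.7, 21 and 46.4 TPM to 9.88, 7.99, 6.45, 6.67 and 7.75 TPM. ID2, a transcriptional target of BMP signals, rose by 1.87, from 5.38, 5.74, 5.1 and 3.06 TPM in WT to 27.3, 13.9, 19, 17.8 and 23.9 TPM (limma adjusted p 0.000496). FST, which sequesters activins, had 90.4, 134, 177, 279.8 and 84.9 TPM in the clone and 35.6, 43.4, 75.5 and 13.6 TPM in WT (1.93, limma adjusted p 0.0448), a call lost without any 1 of clone libraries 2, 3 and 4 or WT libraries 1, 2 and 4. Without WT library 1, 1 higher and 4 lower members of the pathway were called.

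Of 45 Wnt pathway genes 3 rose and 3 fell. FZD4, a Wnt receptor, had 75.7, 80.2, 98, 109 and 66.2 TPM in the clone and 19.2, 21.2, 33.6 and 20.2 TPM in WT (1.84, SE 0.42, limma adjusted p 0.00506). It exceeded clone 1.2 by 3.39 (limma adjusted p 3.41e-05) and the R4 clones by 2.21 (0.000291). DKK1, a secreted inhibitor of the Wnt co-receptors, had 100.03, 140.2, 200.1, 238 and 94.3 TPM in the clone and 18.1, 15.9, 71.4 and 25.8 TPM in WT (2.37, SE 0.53, limma adjusted p 0.00399). WT library 3 was the highest of WT for both genes and still under the clone. RNF43, a ligase that removes Wnt receptors, fell by 2.05, from 6.34, 4.39, 5.27 and 4.69 TPM to 0.389, 0.459, 0.568, 0.678 and 0.324 TPM, and the secreted SFRP2 fell by 2.14 from 6.24, 4.24, 2.79 and 1.79 TPM, being listed at 0 in 3 clone libraries. CTNNB1, the beta-catenin gene on chromosome 3, had 195, 168, 176, 145 and 212 TPM in the clone and 403, 417, 245 and 424 TPM in WT (-1.03, limma adjusted p 0.000628). The CTNNB1 call, at the edge of the threshold, ended without any 1 of clone library 4 and WT libraries 1, 2 and 4, and when the chromosome 3 median was subtracted.

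Receptor tyrosine kinases gave 3 higher and 1 lower of 24: AXL and EGFR above, the VEGF receptor FLT1 (1.38) and MERTK (1.097), a relative of AXL. FLT1 lost its call without any 1 of clone libraries 1 to 4 and WT libraries 1, 2 and 4, and MERTK without clone library 1, clone library 5 or WT library 3. With only the 2 groups fitted the limma adjusted p was 0.00467 for FLT1 and 0.0428 for MERTK. Leaving out any 1 of clone libraries 1 to 4 or WT libraries 1, 2 and 4 left 1 higher and 1 lower kinase. Targets and factors of the TEAD and YAP system gave 3 higher and 3 lower of 33. FOXF2, a forkhead factor, rose by 1.29 from 5.07, 4.27, 4.12 and 5 TPM to 15.9, 12.6, 12.6, 9.98 and 12.8 TPM. WWTR1, which encodes the YAP partner TAZ and lies on chromosome 3, fell by 1.21, from 344, 253, 222 and 265 TPM to 142, 121, 109, 92.4 and 116 TPM, and was not called with the chromosome median subtracted. ERK feedback and output genes gave 2 higher and 1 lower of 43, 6.98% beside 4.88% of all genes: MYC (1.22), IL11 (1.06) and MAFF. IL11, a cytokine, lost its call without any 1 of clone libraries 3 and 4 and WT libraries 1, 2 and 4, as did MAFF, which left 1 higher call.

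The strongest rises included genes of neurons. GRM8 (ENSG00000179603, chromosome 7, 126438598 to 127253294), a metabotropic glutamate receptor, had 14.9, 10.4, 10.5, 11.1 and 11.8 TPM in the clone and 0.064, 0.042, 0.044 and 0 TPM in WT. It was near 0 in all WT libraries and rose by 3.61 (SE 0.15, limma adjusted p 6.87e-12). GRM8 averaged 0.072, 0.403 and 0.392 TPM in clones 1.2, 4.1 and 4.2, and both direct contrasts were called (3.57, limma adjusted p 3.95e-11, and 3.196, 7.25e-12). Of 31 neuronal cytoskeleton and synaptic genes 3 rose and 0 fell, and all 3 encode neuronal intermediate filaments. At a limma adjusted p under 0.05 with no minimum difference, 4 members were higher and 4 lower (6.3% and 15.7% of all tested genes were), and 12 of the 31 lay below 0. The fit of only the libraries of high mitochondrial share held 1 higher call in this list. INA had 7.12, 6.15, 7.17, 5.06 and 5.52 TPM in the clone and 0.101, 0.462, 0.246 and 0.053 TPM in WT (2.57, limma adjusted p 0.000743). NEFM had 16, 12.1, 12.4, 14.8 and 15.1 TPM in the clone and 2.4, 3.25, 1.86 and 3.85 TPM in WT (1.99, SE 0.17, limma adjusted p 2.49e-07). NEFL had 78.8, 93, 72.5, 69.1 and 84 TPM in the clone and 29.1, 27.4, 24.1 and 39.4 TPM in WT (1.39, limma adjusted p 0.000667). None of these 3 genes overlapped between groups. NEFM and NEFL neighbour each other on chromosome 8; NEFM was still called with the chromosome median subtracted and NEFL was not. INA was also high in clones 1.2 and 4.1, at 20.6 and 6.47 TPM, while NEFM stood above clone 1.2 by 1.92 (limma adjusted p 9.00e-07) and above the R4 clones by 2.47 (1.76e-09).

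FGL2, a fibrinogen-like secreted protein, had 88.7, 42.5, 65.2, 90.1 and 99.2 TPM in the clone and 6.71, 5.72, 1.71 and 6.5 TPM in WT (3.72, SE 0.64, limma adjusted p 0.00058). Every clone library was above WT, and WT library 3 was far below the other WT libraries. SYTL5, a RAB27 effector, rose by 3.19, SCUBE3, a secreted EGF-domain protein, by 2.88, SORCS2, a receptor of the sortilin family, by 2.66 and DAB1, an adaptor of the reelin receptors, by 2.52. In the contrasts with clone 1.2 and with the R4 clones FGL2 (3.99 and 3.78), SYTL5 (2.81 and 2.47) and SCUBE3 (3.02 and 3.098) were all called, with limma adjusted p-values of at most 0.000558. Axon guidance genes gave 4 lower and 1 higher of 51, among them SEMA5A (-1.51) and SEMA4D (-1.25), which encode semaphorins, PLXNB1, the receptor of SEMA4D (-1.48), and ROBO3, of a family of slit receptors (-1.42).

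Cancer-testis antigens, germ-line genes that tumours express, gave 3 lower and 1 higher of 35. MAGEC2 (ENSG00000046774, chromosome X, 142202345 to 142205290) had 0.057, 0.021, 0.025, 0.066 and 0.051 TPM in the clone and 65.2, 69.2, 78.9 and 50.2 TPM in WT. The clone values were close to 0 in all 5 libraries and MAGEC2 fell by 5.98 (SE 0.13, limma adjusted p 1.19e-16). MAGEC1, its neighbour in family and on the chromosome, had 0.036, 0.086, 0.072, 0.146 and 0.063 TPM in the clone and 43.6, 46.8, 43.5 and 39.6 TPM in WT (-5.36, limma adjusted p 4.09e-15). MAGEC2 averaged 59.2, 81.9 and 65.1 TPM in clones 1.2, 4.1 and 4.2, from which clone 1.1 differed by -5.84 (limma adjusted p 9.14e-16) and, against the R4 mean, -6.14 (1.09e-17). MAGEA4 went up, from 48.9, 44.4, 52.9 and 48.4 TPM to 142, 133, 145, 138 and 134 TPM (1.49, limma adjusted p 0.0263), although its call ended without any 1 of clone library 3 and WT libraries 1, 2 and 4. In the fit of 21 libraries the SE of MAGEA4 was 0.46. With only the 2 groups fitted that SE was 0.068 and the limma adjusted p 2.65e-06. CTAG1B, lower by 1.66, has a near-identical copy, and its value is uncertain. CPVL, a carboxypeptidase, was also lower than in each of these groups: 0.809, 0.339, 0.31, 0.271 and 0.293 TPM against 27.9, 19.1, 15.5 and 33.3 TPM in WT, with contrasts of -4.36 to clone 1.2 and -3.73 to the R4 clones (limma adjusted p 2.74e-09 and 1.22e-09).

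**Figure D4:**
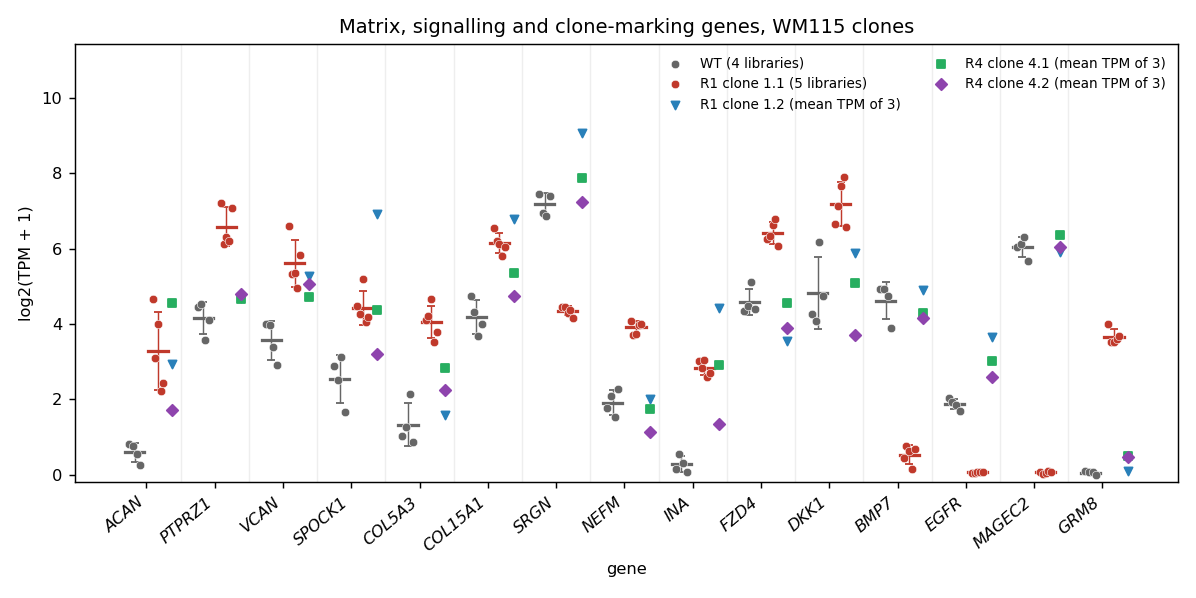
Level in log2(TPM + 1) of 15 matrix, signalling and clone-marking genes in each WT library (grey, n = 4) and each clone 1.1 library (red, n = 5), with bars at the mean and error bars of 1 SD, beside the mean TPM of R1 clone 1.2 (blue), R4 clone 4.1 (green) and R4 clone 4.2 (purple), 3 libraries each. BMP7, EGFR and MAGEC2 are near 0 in clone 1.1 but not in WT or the other clones, GRM8 is high in clone 1.1 only of these 5 groups, and ACAN, VCAN and INA are above WT in the other clones too.

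Most sterol genes lay below WT. Of 32 sterol synthesis and uptake genes 2 fell and 1 rose, 28 were below 0 with a median of -0.50, and 12 were lower at a limma adjusted p under 0.05. DHCR7, the last enzyme of cholesterol synthesis, had 60.8, 60.4, 44.4, 44.7 and 60.02 TPM in the clone and 212, 206, 84 and 164 TPM in WT (-1.53, SE 0.31, limma adjusted p 0.00225). ABCA1, which exports cholesterol, rose by 1.21. HMGCS1 (-1.12, limma adjusted p 0.155), an early enzyme of the pathway, was not called. Without WT library 3, the lowest of WT in HMGCS1 and DHCR7, 9 members were lower and 1 higher. Fatty acid genes gave 5 lower and 1 higher of 49. PPARGC1A, the coactivator of mitochondrial biogenesis, had 0.879, 0.274, 0.293, 0.35 and 2.57 TPM in the clone and 15.5, 15.8, 2.04 and 16.9 TPM in WT (-2.69, limma adjusted p 0.00347), with clone library 5 above WT library 3. The desaturase FADS3 fell by 1.27, the fatty acid carrier FABP3 by 1.31, and CPT1C, a neuronal carnitine transferase, rose by 1.25. FABP3 was not called without WT library 4.

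NRF2 targets and glutathione genes gave 6 lower and 1 higher of 49. MGST1, a microsomal glutathione transferase, was listed at 0 in 4 clone libraries, with 8.25, 4.94, 3.7 and 6.46 TPM in WT (-2.68, limma adjusted p 0.0092), and averaged 326, 9.76 and 79.1 TPM in clones 1.2, 4.1 and 4.2. GPX3, the secreted glutathione peroxidase, fell by 2.20, from 7.37, 6, 5.57 and 5.68 TPM to 0.982, 0.645, 0.368, 0.506 and 0.332 TPM. SOD3, the extracellular superoxide dismutase, rose by 1.61 and lost its call without clone library 2 or WT library 4. Without WT library 1 the list held 3 lower and 1 higher calls. Of 43 ATF4 targets and amino acid genes 3 fell and 1 rose. SLC38A1, a glutamine transporter, had 2.12, 2.67, 1.86, 2.28 and 1.96 TPM in the clone and 30.8, 29.7, 23.9 and 26.1 TPM in WT (-3.17, SE 0.202, limma adjusted p 4.93e-09), and it was below clone 1.2 (-2.63, limma adjusted p 2.06e-07) and the R4 clones (-2.53, 1.43e-08). NUPR1 fell by 1.85 and DDIT4 rose by 1.15, both genes of the stress response. GDF15, a stress cytokine, was lower by 1.48 with overlap, and its call was lost without any 1 of clone libraries 2, 3 and 4 and WT libraries 1, 2 and 4.

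Solute carriers as a family gave 12 lower and 0 higher of 214, 5.61% beside 4.88% of all genes. SLC12A7, a potassium and chloride cotransporter, fell by 2.52 and SLC15A3, a lysosomal peptide transporter, by 2.08. Median-of-ratios scaling left 4 lower and 1 higher solute carriers, and leaving out clone library 3 gave 6 lower and 1 higher. Lysosomal genes gave 4 lower and 1 higher of 70, 7.14%. CTSS, the cathepsin that processes MHC class II ligands, had 1.14, 1.61, 0.368, 2.26 and 1.91 TPM in the clone and 29.9, 16, 8.68 and 31 TPM in WT, without overlap (-3.09, SE 0.44, limma adjusted p 9.31e-05), and FUCA1, a fucosidase, fell by 1.24. Without clone library 3 the list held 2 lower and 1 higher calls. Among retinoid genes 3 of 23 fell. The retinoid count was 1 without WT library 1.

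Genes of cell division gave few calls. None of 54 G2 and mitosis genes was called, 3 were higher at a limma adjusted p under 0.05 with no minimum difference (6.3% of all tested genes were) and the list median was 0.43. That median was 0.15 with only the libraries of high mitochondrial share, 0.13 with the mitochondrial set as a term in the fit and 0.28 without WT library 1. TOP2A, the topoisomerase of dividing cells, had 109.9, 199, 201, 138 and 91 TPM in the clone and 79.8, 94.9, 155 and 67.9 TPM in WT, overlapping through WT libraries 2 and 3 (0.57, limma adjusted p 0.195). One of 50 DNA replication genes was called. Of 22 G1 regulators 3 rose and 1 fell: the growth regulator MYC had 51.3, 37.6, 19.5, 35.6 and 50.5 TPM in the clone and 13.9, 16.7, 12.7 and 18.5 TPM in WT, without overlap (1.22, SE 0.29, limma adjusted p 0.00661), and exceeded clone 1.2 (2.102, limma adjusted p 9.37e-05) and the R4 clones (3.004, 2.04e-07). CCNE2, a cyclin of S-phase entry, rose by 1.19, CDKN1C, a CDK inhibitor, by 1.34, and MYCN fell by 1.12. MYC and CCNE2 lie on chromosome 8, and neither was called with its median subtracted. CCNE2 and MYCN were not called without WT library 1, MYCN also without WT library 2, and CDKN1C without WT library 4. Death regulators gave 3 lower and 1 higher of 34, 11.8% beside 4.88% of all genes. BIRC7, the melanoma inhibitor of apoptosis, had 6.94, 15, 1.52, 2.93 and 7 TPM in the clone and 0.164, 0.345, 0.068 and 0.566 TPM in WT (2.31, limma adjusted p 0.00354). The caspase gene CASP1 fell by 1.11, a call lost without clone library 3. EMT factors, cadherins and keratins gave 2 lower and 1 higher of 42, 7.14% beside 4.88% of all genes. They were the claudins CLDN11 (-2.03) and CLDN1 (-1.51) and the plakophilin PKP3 (1.84). This list gave 5 higher and 2 lower calls with median-of-ratios scaling, and 3 to 6 calls in all when 1 library was left out.

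Replication-dependent histones gave 8 lower and 0 higher of 29, with a median of -0.79. H2BC12 had 25.2, 23.4, 27.9, 27.6 and 27.6 TPM in the clone and 113, 82.4, 56.9 and 106 TPM in WT, without overlap (-1.68, SE 0.29, limma adjusted p 0.000523), and H2AC6 fell by 1.89. Poly-A selected libraries hold few of these mostly unadenylated RNAs, and H2AC18 has a near-identical copy and was listed at 0 in clone library 5, so that its value is uncertain. Without WT library 1, 3 of the histone genes were called. Cytosolic ribosomal protein genes moved together and little: 57 of 84 were higher at a limma adjusted p under 0.05, 2 were called, and the median was 0.40. That median was 0.18 after quantile normalization, its lowest under any alternative, and 0.54 with median-of-ratios scaling, its highest. Of 13 mitochondrially encoded protein genes 3 were lower, with a median of -0.88. MT-CYB had 2951, 1986, 2202, 5969.5 and 6422 TPM in the clone and 7736, 8029.9, 7107 and 7559 TPM in WT. Clone libraries 4 and 5 stood close to WT and libraries 1 to 3 far below. In the fit of only the libraries of high mitochondrial share 0 of these genes were called and the list median was -0.11. Without clone library 5 there were 10 lower calls and without clone library 4 there were 6, while without clone library 1, 2 or 3 or WT library 1, 2 or 4 there were 0, and without WT library 3 there was 1. The MT-CYB call was lost without any 1 of clone libraries 1, 2 and 3 and WT libraries 1, 2 and 4.

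Smaller or broader families gave few calls. Channel subunits for potassium, sodium and calcium gave 4 lower and 0 higher of 53, 7.55% beside 4.88% of all genes. Among them the cold-sensing TRPM8 had 9.19, 3.86, 1.86, 1.42 and 8.23 TPM in the clone and 31.6, 26.1, 9.91 and 20.8 TPM in WT, without overlap (-2.095, limma adjusted p 0.0059). Krueppel-type zinc finger genes gave 4 higher and 5 lower of 443, 2.03% beside 4.88% of all genes, with ZNF521, a regulator of progenitor cells, down from 4.23, 3.08, 2.88 and 1.5 TPM to at most 0.101 TPM (-1.89, limma adjusted p 8.41e-06). Of 15 S100 genes 1 rose: S100A4, linked to cell motility, had 948, 1321, 1659.6, 1522 and 1189 TPM in the clone and 260.4, 280.3, 396 and 240.2 TPM in WT, without overlap (2.17, SE 0.26, limma adjusted p 1.65e-05).

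Several lists gave no calls. They were JAK and STAT3 pathway genes (33 tested), glycolysis (25), the unfolded protein response (29), heat shock proteins (69), clustered protocadherins (16), HOX genes (37) and proteasome subunits (46). At a limma adjusted p under 0.05 with no minimum difference, 2 higher and 2 lower JAK and STAT3 genes, 7 higher and 3 lower proteasome genes and 10 lower HOX genes passed. Of all tested genes 6.3% were higher and 15.7% lower at that threshold. STAT3 itself had 76.1, 60.9, 55.9, 38.2 and 50.5 TPM in the clone and 107, 96.7, 66.3 and 70.8 TPM in WT (-0.59, limma adjusted p 0.0668). LDHA, the lactate enzyme, had 2081, 2525, 2136, 1184 and 1170.5 TPM in the clone and 728, 1032, 1313 and 792 TPM in WT (0.88, limma adjusted p 0.0585). Its clone libraries 4 and 5 overlapped WT while libraries 1 to 3 did not, the same split as in the mitochondrial share. Nuclear-encoded respiratory chain genes gave 1 higher and 1 lower of 80, and mitochondrial ribosomal proteins 1 higher of 78.

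Differences were not spread evenly over the genome. Genes on chromosome 8 had a median log2 difference of 0.41, 78.7% of the 578 tested were above 0, and 9.86% were called, beside 4.88% of all genes. Of the 207 genes called higher 47 lie on chromosome 8. Chromosomes 15 (median -0.39), 3 (-0.32), 13 (-0.30) and 11 (-0.27) were lower than the median of all genes, -0.12, and chromosome 22, which holds SOX10, was at -0.06. In windows of 20 Mb along chromosome 8 the median lay between 0.27 and 0.54 in all 8 windows, and along chromosome 15 between -0.48 and -0.31 in 4 windows. Each of the 5 clone libraries had this shift on chromosome 8, by 0.32 to 0.53 relative to the WT mean, while WT libraries ranged from -0.06 to 0.05. DNA was not measured, and the part of gene dosage in these differences was not tested.

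With the median of each chromosome subtracted, an alternative chosen after these shifts were seen, 622 genes were called, and 28 of the 144 called genes examined by name were no longer called. They include MYC, CLU, NEFL, CCNE2 and PLAT on chromosome 8, CTNNB1 and WWTR1 on chromosome 3, TYR on chromosome 11 and B2M and TRPM1 on chromosome 15. The subtraction left 7 of 14 interferon-stimulated calls, 1 of 3 melanin calls, 3 of 5 NF-kB calls and 2 of 4 integrin calls. Solute carriers gave 6 lower and 1 higher calls in place of 12 lower. SAA1, LCN2, C3, MAGEC2, BMP7, GRM8, ACAN and FZD4 kept their calls. The subtraction could hardly end these calls, since each difference was far larger than the median of its chromosome.

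**Figure D5:**
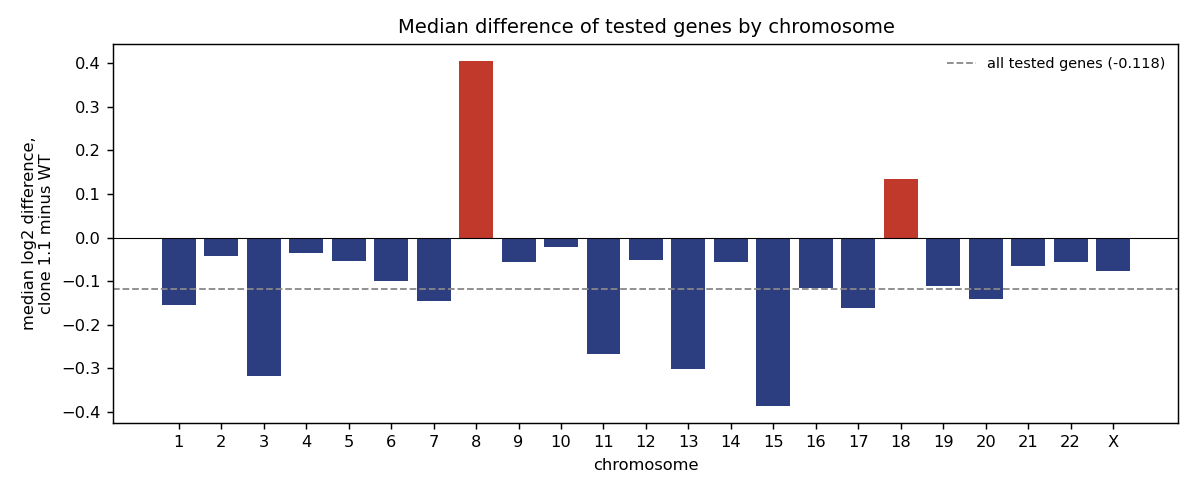
Median log2 difference of tested genes, clone 1.1 minus WT, on each nuclear chromosome drawn (1 to 22 and X), with a dashed line at the median of all tested genes (-0.12). Of those drawn, chromosome 8 is highest at 0.41 and chromosome 15 lowest at -0.39.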

How the data were processed

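RNA was selected on oligo-dT beads and copied with random hexamers, per the labels' protocols. The authors deposited gene TPM values, with DRAGEN and GRCh38 named in the submitters' processing notes without versions, and read depth is not given. Each library sums to between 999999.9 and 1000000.1 TPM. Repeated identical lines (200) were used once, which left 60671 gene IDs. Of these, 58453 have GENCODE 29 positions. Another 6 columns belong to no sample here and were not used, and the transcript table was not used.

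Values were taken as log2(TPM + 1) and fitted with limma 3.58.1 (R 4.3.3, variance trend) over all 21 WM115 libraries in 6 groups. The sixth group, whose labels disagree on its region, enters only the shared spread. Tested genes had at least 1 TPM in at least 3 WM115 libraries, p-values were adjusted by Benjamini-Hochberg over all tested genes, and a call needed an adjusted p under 0.05 and a difference of at least 1. Single values used exact permutation tests. The fit was tested on simulated data. The members and gene lists were chosen with earlier results of these data known. The text names the 10 largest called differences in each direction among protein-coding genes without overlap whose mean reached 5 TPM in the higher group, up to 4 called members of each list, SOX10, MITF, called genes within 1 Mb of SOX10, and leading members of lists with few calls. VCAN, SPOCK1, SDC2, S100A4, IFI6, NFKBIA, C1R and C2 were chosen after their values were seen. Replicate numbers were not taken to pair the groups. Alternatives were other pseudocounts, filters and scalings, library weights, fits of the 2 groups, a block for replicate number, the mitochondrial share, leaving out each library and, chosen after seeing the data, subtracting each chromosome's median. Promoter windows come from RefSeq (GRCh38.p14). A few genes are not reported here.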

Additional observations from a re-analysis of the deposited data

Results flagged for a closer look

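Within-group outliers were sought among the genes examined by name, in 346 groups of 4 or 5 libraries, and 20 groups held a library far from the others. The critical value for this, Dixon's, is set so that chance passes it in about 1 group in 20. The 20 flagged groups among 346 are close to that rate, so the flags in total are about as many as chance gives. That total does not show how the flags fall over libraries: all flags in WT were in libraries 3 and 4. The values listed below describe single libraries, and whether a library is unusual was not tested. Levels below are TPM.

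WT library 3 stood apart in 6 genes. PPARGC1A was at 2.04 there and at 15.5 to 16.9 in the other 3 WT libraries, MAFF at 105 against 217 to 249, PLXNB1 at 32.1 against 46.2 to 48.0, TNFAIP3 at 4.84 against 16.0 to 19.1, CTNNB1 at 245 against 403 to 424, and FGL2 at 1.71 against 5.72 to 6.71. WT library 4 stood apart in 4 genes. BMP7 was at 13.8 there against 25.8 to 29.2, IL1B at 14.7 against 73.3 to 79.6, FLT1 at 4.64 against 9.84 to 10.9, and DAB1 at 0.305 against 0.948 to 1.06.

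In the clone, library 1 was high in CPVL (0.809 against 0.271 to 0.339), ITGA11 (11.4 against 2.25 to 3.77) and MX1 (3.02 against 1.8 to 2.03). Library 2 alone had a value above 0 for MGST1 (0.185). Library 3 was low in MLANA (0.658 against 5.15 to 6.85), and library 4 was low in SLC15A3 (1.2 against 3.39 to 3.93). Library 5 was high in CCL2 (0.584 against 0 to 0.109), ZNF521 (0.101 against 0 to 0.012) and ZNF91 (0.379 against 0 to 0.019), and it listed H2AC18 at 0.0 against 5.09 to 7.46. Most of the clone values flagged are low levels near 0, where 1 library can stand apart by a small amount.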

How the results depend on the processing

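The number of genes called, 829 with 25.0% higher, was 1447 (19.9% higher) with a pseudocount of 0.1, 485 (28.5%) among genes with a mean of at least 5 TPM, 371 (24.0%) with only the libraries of high mitochondrial share, and 3732 (28.7%) with no minimum difference. Leaving out 1 library at a time gave 663 to 1034 genes, the fewest without WT library 1 and the most without WT library 3. The other alternatives stayed within 1.5 times of 829. The fit of the 2 groups with a replicate block gave 1089 genes. Same-numbered libraries had correlations of 0.245, -0.042, 0.331 and -0.005 in their deviations from the group means, and clone library 5 had 0.317 with WT library 4. These mixed values do not settle whether libraries of the groups were paired, and no pairing was used in the main fit. SOX10 was not called under any alternative: its log2 difference was -0.38 to -0.26 when 1 clone 1.1 or WT library was left out, and its limma adjusted p 0.729 to 0.834, while the adjusted p was 0.127 without library 3 of R1 clone 1.2 and 0.033 with the block. The difference of PMEL, not called, lay between -0.077 and 0.657 when 1 of these libraries was left out, below 0 only without WT library 3. Of 144 called genes named by rule or by choice, 38 were tested and called under all 24 alternatives, 53 kept their call under each alternative that tested them, and 0 changed direction. Calls ended most often with the high-share libraries only (86 genes), with the mitochondrial set as a term (34), without WT library 4 (29), with chromosome medians subtracted (28) and without WT library 1 (25). The cause of these changes was not tested. TPM give no depth, so precision at low levels is unknown.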
